A study of Fundulus heteroclitus with 36 samples.

Results

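The genes described here are the enzymes and remodellers that act on chromatin in the brain of the Atlantic killifish embryo. They were taken by their RefSeq symbols, which had to begin with kmt, kdm, setd, arid, smarc, hdac, ezh, suz12 or dnmt, or with chd, kat, brd or tet followed by a digit. In this way 99 of 31637 genes were found. Symbols, not functions, chose them: setd3, for example, is best known in mammals as a methyltransferase of actin. Genes with only a LOC number (17443 in these data) could not be searched, so family members without a symbol are not covered. After the filter on low counts 98 of the 99 were tested, and arid6, at a mean of 0.00737 transcripts per M (TPM), was not.

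Each of 36 libraries came from the brain of 1 embryo at 17 days post fertilisation, 6 embryos in each of 6 groups. The New Bedford Harbor (NBH) groups were NBH Control, NBH PCB40 and NBH PCB400, where embryos received none, 40 or 400 ng/L of PCB126, a dioxin-like polychlorinated biphenyl, on days 1 to 7. The Scorton Creek (SCO) groups were SCO PCB40, given 40 ng/L in the same window, SCO Hg Fed and SCO Control. In SCO Hg Fed the parents had eaten a tuna diet that gave breeding stock high in methylmercury, and the embryos themselves were not dosed. The controls and the PCB126 embryos of both populations descended from stock on a salmon diet low in methylmercury, per the design text. The labels do not say whether embryos of 1 group shared parents, so p-values measure only the spread between these embryos.

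DNA in the nucleus is wound around histones. Methyltransferases, demethylases, acetyltransferases and deacetylases write and erase marks on those histones, bromodomain proteins bind acetylated histones, and remodellers of the SWI/SNF, ISWI and CHD families move nucleosomes with energy from ATP. DNA methyltransferases place methyl groups on cytosine, and TET enzymes oxidise them. In the developing brain this machinery is known for its part in the switch from dividing progenitors to neurons, and mutations in many of its genes cause developmental disorders in humans.

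The brain libraries held 38.51 to 66.45 M estimated reads each, so that 3 reads correspond to 0.0451 to 0.0779 counts per M reads (CPM). Neuron markers (21 of 26 listed genes matched) summed to between 2950 and 5420 TPM in every embryo and radial glia markers (9 of 12) to between 4680 and 8950 TPM. The libraries also differed in how expression depended on transcript length. For each library a length slope was computed, taken across genes, of a gene's log2 deviation from its mean over the 36 embryos against its log2 transcript length; above 0, long transcripts read relatively high. The slope was negative in 6 of 6 NBH Control embryos (mean -0.105 ± 0.035, SD, n = 6) and positive in 6 of 6 SCO Control embryos (0.116 ± 0.052). It was of mixed sign in the PCB126 groups, positive in 1 of 6 NBH PCB40, 4 of 6 NBH PCB400 and 3 of 6 SCO PCB40 embryos, and positive in 6 of 6 SCO Hg Fed embryos. What set the slope was not tested, and between the 2 controls it cannot be told apart from population.

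This bears on the chromatin genes because they are long. The median transcript length of the 98 tested genes, weighted by abundance, was 5399 bases, against 2361 bases for all 23292 tested genes. CHD remodellers had the longest transcripts (median 8666 bases, 11 genes), followed by the DNA methylation enzymes (8144 bases, 6 genes), and the histone deacetylases were closest to the background (2785 bases, 11 genes). Single genes ran from 983 to 17194 bases, the longest being kmt2cb, named after its length was seen.

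Per length, the chromatin genes had a median level of 4.49 TPM, against 3.36 TPM for all tested genes. Mean levels of 15 of them were over 20 TPM and those of 15 were under 1 TPM. The most abundant was hdac1, the class I deacetylase of several corepressor complexes, at a mean of 85.7 TPM with single embryos between 42.3 and 174 TPM. Next came smarcd1, a core SWI/SNF subunit, at 65.7 TPM, kat8, which acetylates histone H4, at 64.6 TPM, and kdm1a, a demethylase of histone H3 lysine 4, at 60.2 TPM.

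Each role had its own leading genes. Among the methyltransferases ezh1, a catalytic subunit of Polycomb repressive complex 2, averaged 34.2 TPM and setd7 27.0 TPM. Among the remodellers the ISWI ATPase smarca5 averaged 33.0 TPM, chd2 30.1 TPM and the NuRD ATPase chd4a 15.5 TPM. The bromodomain genes brd7 and brd2a averaged 26.7 and 22.4 TPM, the deacetylase hdac11 23.7 TPM, the acetyltransferase kat2b 18.9 TPM and kdm8 16.1 TPM. The DNA methylation enzymes were lower: the maintenance methyltransferase dnmt1 averaged 9.38 TPM and tet3 7.61 TPM. Long genes tended to have low levels per length, with a Spearman correlation of -0.46 between TPM and length across the 98 genes and -0.25 across all tested genes; genes of 1 set of libraries are not independent.

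**Figure D1:**
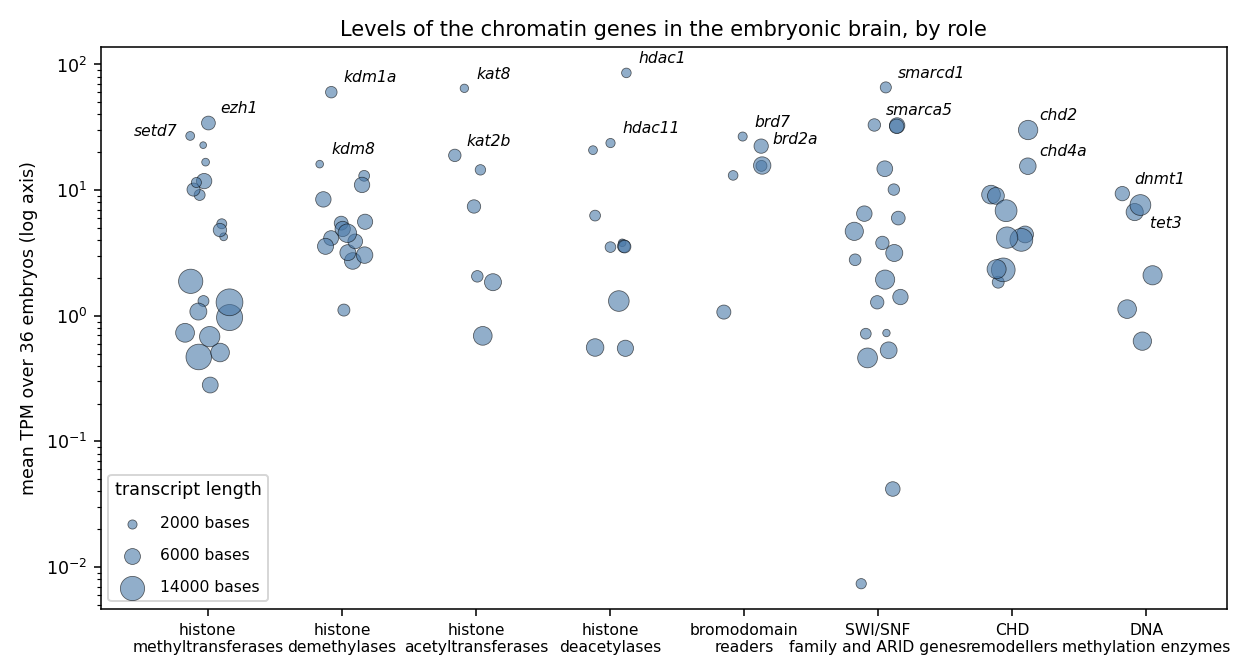
Mean TPM over 36 embryos (log axis) of the 99 chromatin genes by role, 1 circle a gene, with the area of the circle growing with transcript length; the leading 2 genes of each role are named. hdac1 stands highest at 85.7 TPM, and the DNA methylation enzymes all lie under 10 TPM, with dnmt1 at 9.38 TPM.

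Summed over all 99 genes, the chromatin machinery took between 0.3039% (NBH PCB40 replicate 6) and 0.4521% (SCO PCB40 replicate 2) of the reads of a library. The share averaged 0.32% ± 0.01 in NBH Control, 0.33% ± 0.03 in NBH PCB40 and 0.35% ± 0.03 in NBH PCB400 embryos. In Scorton Creek it averaged 0.35% ± 0.05 in SCO PCB40, 0.34% ± 0.01 in SCO Hg Fed and 0.37% ± 0.03 in SCO Control embryos (SD, n = 6 each). Per length the sums differed less: 984 ± 35 TPM in NBH Control, 1020 ± 89 TPM in NBH PCB40 and 1034 ± 77 TPM in NBH PCB400, then 1012 ± 140 TPM in SCO PCB40, 999 ± 40 TPM in SCO Hg Fed and 1048 ± 87 TPM in SCO Control. The ranges of the groups overlap.

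Within groups some of these genes were very steady between embryos. The bromodomain gene brd9 and the H3K27 demethylase kdm6a had a pooled within-group SD of 0.12 on a log2 scale of CPM with 0.5 added. The added 0.5 shrinks the SD of genes with low CPM, so the order given here holds for this scale only. The SWI/SNF ATPase smarca2 was the most variable, with an SD of 1.16, and its level in single NBH Control embryos included 0.696, 3.74 and 15.1 CPM. The next most variable were kmt5b and hdac8, both with an SD of 0.75, brd1a (0.72) and tet1 (0.71). Genes of this paragraph were chosen after their values were seen.

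The first comparison asks how 400 ng/L PCB126 acted in NBH embryos. In NBH PCB400 against NBH Control, 5 chromatin genes fell and 0 rose of 98 tested (5.1%), where 3.74% of all tested genes were called and 2.31% were called lower. Called genes are those whose p from edgeR's quasi-likelihood test, adjusted by Benjamini-Hochberg over all tested genes, was under 0.05. The 5 were hdac1, smarca5, smarcd1, setd3 and kat2a: a deacetylase, an ISWI ATPase, a SWI/SNF subunit, a SET domain gene and a SAGA acetyltransferase, 3 of them among the 6 most abundant chromatin genes.

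The ISWI ATPase smarca5 measured 55.1 CPM in the lowest, 68.5 in the median and 93.1 CPM in the highest NBH PCB400 embryo, against 113, 119 and 130 CPM in NBH Control. No value of the exposed embryos reached those of the controls. Its log2 fold change was -0.76 (SE 0.15, adjusted p = 0.00515), or 0.589 times the control level. In whole brains, fewer cells of a type and less RNA per cell cannot be told apart in such values. At 40 ng/L the same gene ran from 97.5 to 158 CPM in NBH PCB40 embryos, across the whole control range.

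hdac1 measured 70.3, 102 and 133 CPM (lowest, median and highest) in NBH PCB400, against 178, 199 and 224 CPM in NBH Control. The groups did not overlap, and the log2 fold change was -0.96 (SE 0.20, adjusted p = 0.00962), 0.514 times the control level. At 40 ng/L hdac1 was widely scattered, from 124 to 322 CPM in NBH PCB40 embryos.

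The other 3 changed less. smarcd1 ran from 93.9 to 149 CPM in NBH PCB400 and from 133 to 189 CPM in NBH Control, with 4 of 6 exposed embryos below every control (log2 fold change -0.44, SE 0.11, adjusted p = 0.0295). setd3 ran from 17.4 to 21.9 CPM in NBH PCB400 against 22.3 to 25.5 CPM in NBH Control, with no overlap (-0.33, SE 0.09, adjusted p = 0.0342). kat2a ran from 19.0 to 26.9 CPM in NBH PCB400 and from 24.7 to 30.0 CPM in NBH Control, with 5 of 6 exposed embryos below every control (-0.37, SE 0.10, adjusted p = 0.0448). smarca5 and hdac1 were called under every alternative tried. The number of chromatin genes called fell to 2 without replicate 2 or 3 of NBH Control or replicate 2, 3 or 5 of NBH PCB400. It fell to 3 without replicate 4 of either group. Calls over all genes are not given for these fits, so the counts have no background share.

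Cell cycle markers moved in the same libraries. Of 22 tested, 5 were called lower and 0 higher, with 2.31% of all tested genes called lower. Their median log2 fold change was -0.74. With each library's trend of expression with length removed, 3 were called lower and 0 higher (median -0.71), with 1.89% of all tested genes lower. The summed level of these markers ran from 227 to 666 TPM in NBH PCB400 and from 488 to 710 TPM in NBH Control. None was at 0 in every embryo. Their part in the lower smarca5 and hdac1 values was not tested.

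The remaining roles showed no call at 400 ng/L. The 16 demethylases had a median log2 fold change of 0.12, the 11 CHD remodellers of 0.06 and the 6 DNA methylation enzymes of 0.19, against 0.05 for all tested genes. Over the 98 chromatin genes the median was 0.12, with log2 fold changes from -0.96 to 1.28. With each library's trend of expression with length across all genes (the length trend) removed, this median was -0.01. Then 6 chromatin genes were called (3.67% of all genes): smarca5, hdac1, smarcd1, setd3, kat2a and the remodeller smarcad1a. The last was named after its values were seen.

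Other genes of chromatin, from 10 lists of partner subunits, readers, chaperones and enzymes of other families, gave 4 higher and 15 lower calls among 209 tested in NBH PCB400 against NBH Control (9.09%, against 3.74% of all tested genes), and 5 higher and 11 lower with the length trend removed. The SNF2-family remodeller hells averaged 17.0 ± 8.30 CPM in NBH PCB400 and 40.8 ± 5.41 CPM in NBH Control (log2 fold change -1.27, SE 0.27, adjusted p = 0.0113), below every control in 5 of 6 embryos. The arginine methyltransferases prmt6 (-0.95, SE 0.20, adjusted p = 0.00823) and carm1 (-0.74, SE 0.15, adjusted p = 0.0063) fell as well. So did the CAF-1 chaperone subunit chaf1a (-0.90, SE 0.24, adjusted p = 0.0308) and actl6a, the actin-like subunit of the progenitor form of SWI/SNF in mammals (-0.54, SE 0.13, adjusted p = 0.0231). Among the 25 tested acetyltransferases and coactivators of other families 3 rose and 0 fell, led by ncoa1 (0.65, SE 0.17, adjusted p = 0.0278) and jade2 (1.27, SE 0.35, adjusted p = 0.0396). With the length trend removed ncoa1 was not called (0.44, adjusted p = 0.0677), and the other genes named here were.

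**Figure D2:**
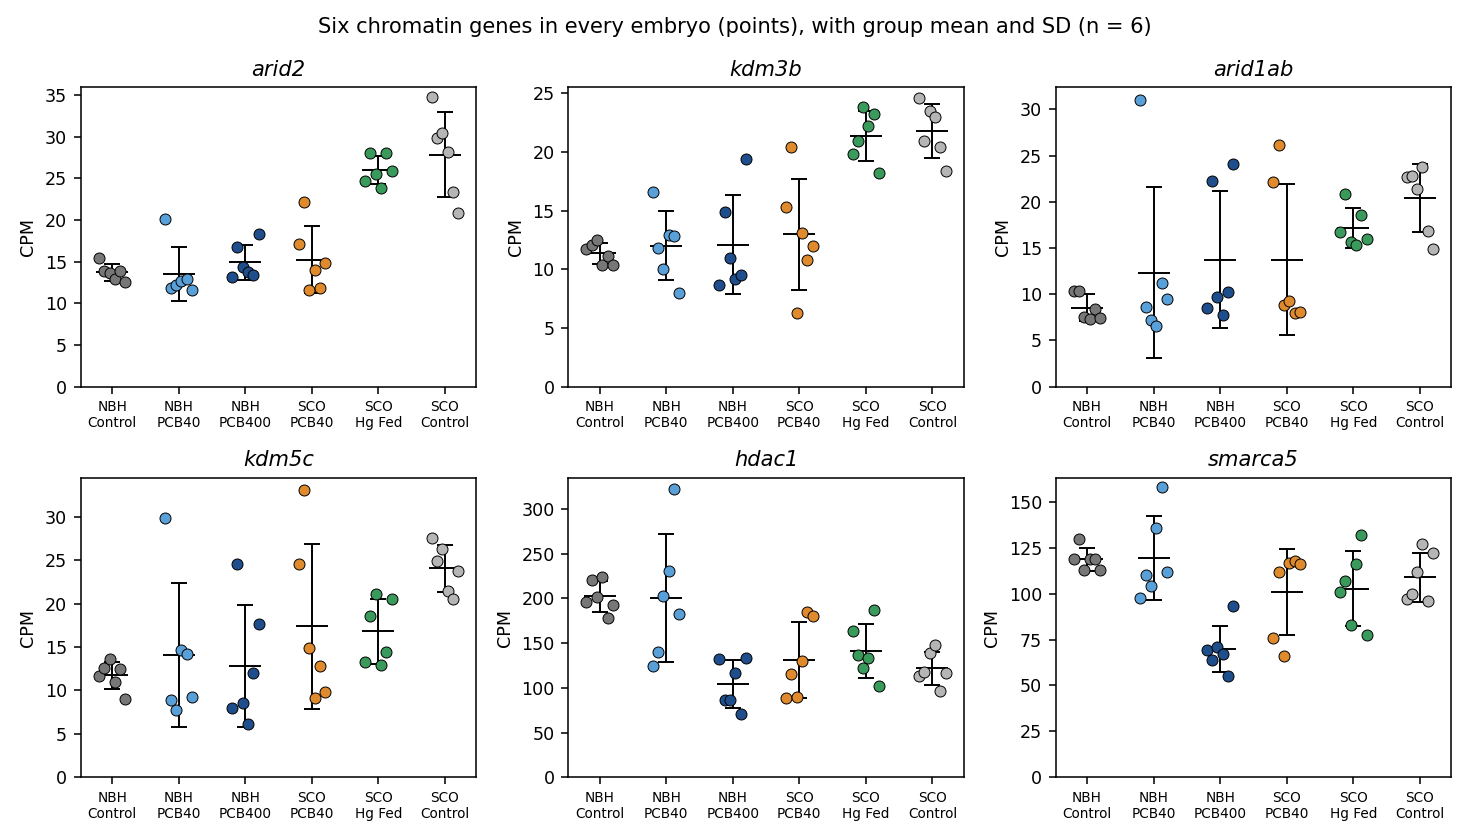
CPM of 6 chromatin genes in every embryo (points), with the group mean and SD (n = 6); groups run along the x axis. arid2 and kdm3b lie high in SCO Hg Fed and SCO Control and low in the other 4 groups, arid1ab and kdm5c have single high embryos in the PCB126 groups, and hdac1 and smarca5 are low in NBH PCB400, at means of 104 and 70.0 CPM.

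At 40 ng/L no chromatin gene was called in NBH embryos. In NBH PCB40 against NBH Control 0 of 98 passed and 0% of all tested genes did; at an unadjusted p under 0.05 there was 1 chromatin gene, with 3.06% of all genes, and DESeq2 called 0 chromatin genes, with 0.0773% of all genes. The chromatin gene with the smallest p was brd9, a subunit of a SWI/SNF complex variant, at 22.7, 23.4 and 25.6 CPM (lowest, median, highest) in NBH PCB40 against 17.0, 21.0 and 22.0 CPM in NBH Control. All 6 exposed embryos lay above every control, yet the adjusted p was 1 (log2 fold change 0.21, SE 0.08). tet1 (0.79, SE 0.41) and chd7 (0.32, SE 0.19) were next, each with an adjusted p of 1. arid2 differed by a log2 fold change of -0.02 (SE 0.14). This comparison and that at 400 ng/L share the NBH Control embryos.

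In Scorton Creek embryos 40 ng/L PCB126 went with lower levels of a few long chromatin genes. In SCO PCB40 against SCO Control, 5 genes fell and 0 rose of 98 tested (5.1%), with 2.67% of all tested genes called and 1.92% called lower. They were arid2, chd9, kdm2ab, kdm3b and setd5, and all 5 belong to the 49 chromatin genes with transcripts longer than 5399 bases. Among transcripts of 4000 to 8000 bases 4 of 41 chromatin genes (9.76%) were lower, against 6.02% of all genes. Over 8000 bases 1 of 23 chromatin genes (4.35%) was lower, against 4.37% of all genes. Calls over all genes are not given for the fits without single embryos, so the counts from those fits have no background share. The number of chromatin genes called was 10 without SCO PCB40 replicate 2 and 1 without SCO PCB40 replicate 5. It was 2 without replicate 1, 3 or 4 of SCO Control or replicate 4 of SCO PCB40, and 3 without replicate 2 of SCO Control or replicate 3 or 6 of SCO PCB40. In addition, a fit to the embryos of these groups alone called 0 (0.455% of all genes), with arid2 at an adjusted p of 0.0586.

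arid2, the DNA-binding subunit that marks the PBAF form of SWI/SNF, gave the smallest p. It measured 11.6, 14.4 and 22.2 CPM (lowest, median, highest) in SCO PCB40 against 20.8, 28.9 and 34.7 CPM in SCO Control. Of the exposed embryos 5 lay below every control, and the highest of them, replicate 2, fell within the control range. The log2 fold change was -0.87 (SE 0.14, adjusted p = 7.2e-04), 0.549 times the control level, and with the length trend removed -0.62 (adjusted p = 3.45e-04). arid2 has 1 annotated transcript, of 6903 bases, so no choice between annotated isoforms enters its value.

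The other 4 had larger adjusted p and were not called under 6 to 14 of 22 alternatives, against 1 of 22 for arid2. chd9, a CHD remodeller, ran from 27.6 to 42.3 CPM in SCO PCB40 and from 37.6 to 57.7 CPM in SCO Control (log2 fold change -0.45, SE 0.11, adjusted p = 0.0212). kdm3b, an H3K9 demethylase, ran from 6.25 to 20.4 CPM in SCO PCB40 and from 18.4 to 24.6 CPM in SCO Control (-0.75, SE 0.20, adjusted p = 0.0317). setd5 ran from 3.80 to 7.76 CPM in SCO PCB40 and from 7.41 to 9.08 CPM in SCO Control (-0.52, SE 0.14, adjusted p = 0.0402). With the length trend removed 1 chromatin gene was called (1.36% of all genes), arid2, and none of these 3, at adjusted p of 0.17 for chd9, 0.0819 for kdm3b and 0.335 for setd5.

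kdm2ab, a demethylase of H3K36, ran from 11.4 to 23.0 CPM in SCO PCB40 and from 16.4 to 108 CPM in SCO Control (log2 fold change -1.18, SE 0.29, adjusted p = 0.0236). Its highest control, replicate 3, stood far above the other controls, at 39.2 CPM or less. Without that embryo the log2 fold change was -0.53 (adjusted p = 0.15). How reads were divided between kdm2ab and its paralog kdm2aa, or between other duplicated genes such as arid1ab and arid1aa, cannot be checked from these values.

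The SCO PCB40 embryos differed in the sign of the length slope. Replicates 1, 2 and 3 had slopes of 0.116, 0.243 and 0.016, and replicates 4, 5 and 6 had -0.225, -0.164 and -0.145. Without those 3 negative-slope embryos 1 chromatin gene was called, arid2 (0.851% of all genes). In SCO PCB40 against SCO Control, where 2.67% of all tested genes were called, muscle markers were called higher in 5 of 17 and lower in 1. They summed to between 25.2 and 401 TPM in SCO PCB40 and between 24.5 and 53.3 TPM in SCO Control. Leukocyte and microglia markers were called higher in 3 of 15 (1160 to 2700 TPM in SCO PCB40, 1030 to 2170 TPM in SCO Control), and oligodendrocyte markers lower in 3 of 13 (1020 to 2070 TPM in SCO PCB40, 1150 to 1850 TPM in SCO Control). With the length trend removed 2 muscle markers were called higher and 0 lower, where 1.36% of all tested genes were called. Then 4 leukocyte and microglia markers were higher and 1 oligodendrocyte marker was lower. No gene of these lists was at 0 in every embryo, and their part in the arid2 value was not tested.

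Among the 209 other chromatin genes 1 was called higher and 6 lower in SCO PCB40 against SCO Control (3.35%, against 2.67% of all tested genes), and 2 higher and 1 lower with the length trend removed. The histone chaperone seta averaged 300.0 ± 83.2 CPM in SCO PCB40 and 518 ± 49.8 CPM in SCO Control, below every control in 6 of 6 embryos (log2 fold change -0.79, SE 0.18, adjusted p = 0.0166). It is a short transcript of 1280 bases and stayed called with the length trend removed (adjusted p = 0.00696). The methyltransferase prdm2b (-0.49, SE 0.12, adjusted p = 0.0211) and the remodeller rad54l2 (-0.44, SE 0.10, adjusted p = 0.0163) were also lower, and neither was called once the length trend was removed. pagr1, of the KMT2C/D complexes, rose (0.45, SE 0.11, adjusted p = 0.0268) and was not called with the length trend removed (0.28, adjusted p = 0.0743).

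Whether the 2 populations answered 40 ng/L differently was tested as the difference between their log2 fold changes, SCO minus NBH. No chromatin gene passed: 0 of 98, with 0.0172% of all tested genes called. At an unadjusted p under 0.05 there were 14 chromatin genes (9.17% of all genes), and DESeq2 called 1 (0.326% of all genes). arid2 came first, with a difference of -0.85 (SE 0.20, adjusted p = 0.141, and 0.0201 in DESeq2), followed by kdm3b (-0.83, SE 0.28, adjusted p = 0.342) and brd9 (-0.35, SE 0.12, adjusted p = 0.349). Over the alternatives the adjusted p of arid2 ran from 0.0198, without SCO PCB40 replicate 2, to 0.414. The log2 fold changes behind it were -0.87 in Scorton Creek and -0.02 in New Bedford Harbor embryos.

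A high-methylmercury parental diet went with no called chromatin gene. In SCO Hg Fed against SCO Control 0 of 98 passed, as did 0% of all tested genes, with 2 chromatin genes and 5.45% of all genes at an unadjusted p under 0.05. DESeq2 called 1 (0.331% of all genes), smarcb1a, a core SWI/SNF subunit. Its level was 5.21 and 4.57 CPM in SCO Hg Fed replicates 1 and 6, between 0.274 and 0.472 CPM in the other 4 of that group and between 0.155 and 0.563 CPM in SCO Control (log2 fold change 2.57, SE 0.68, edgeR adjusted p = 0.209, DESeq2 adjusted p = 0.0262). The other 4 embryos of SCO Hg Fed lay within the range of SCO Control. The remodeller chd1l (-0.29, SE 0.12, adjusted p = 0.674) and the deacetylase hdac7a (-0.35, SE 0.20, adjusted p = 1) came next, and arid2 ran from 23.8 to 28.0 CPM in SCO Hg Fed, inside the SCO Control range. The median log2 fold change of the 98 genes was -0.08, against 0.00 for all tested genes. This comparison and that of SCO PCB40 share the SCO Control embryos.

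The largest number of calls lay between the populations without exposure. In NBH Control against SCO Control 3 chromatin genes were higher and 26 lower of 98 tested (29.6%), with 17.4% of all tested genes called, 7.33% higher and 10% lower. Their median log2 fold change was -0.19, against -0.01 for all tested genes. Because the length slopes of the 2 groups did not overlap, these values are given with the length trend as measured and with it removed: then 8 were higher and 8 lower, with 11.1% of all tested genes called, 4.88% higher and 6.25% lower, and the median was -0.03.

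**Figure D3:**
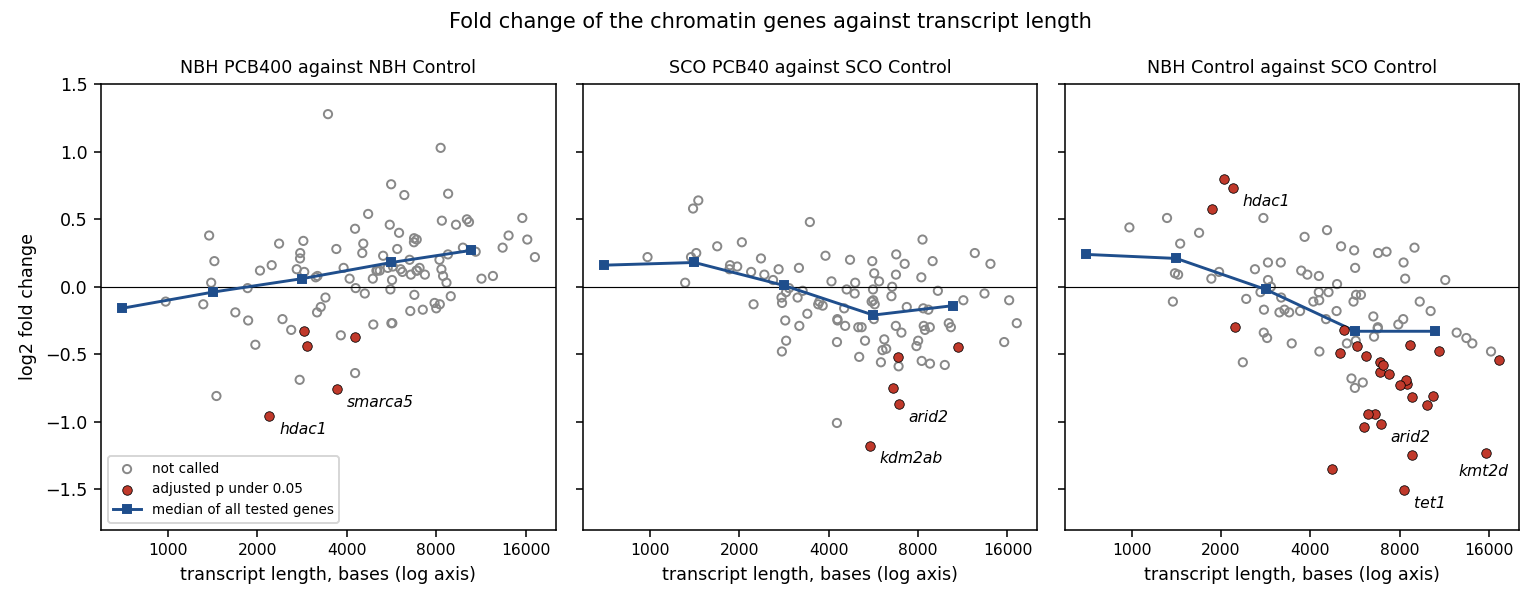
Log2 fold change of the 98 tested chromatin genes against transcript length in bases (log axis) in 3 comparisons; filled points passed an adjusted p of 0.05 and squares joined by a line give the median of all tested genes in 5 length classes. In NBH Control against SCO Control the chromatin genes fall with length (Spearman correlation -0.56), as all tested genes do (-0.37). In NBH PCB400 against NBH Control they rise with it (0.40), as all tested genes do (0.24).

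The fall with length was seen over the whole set. Of the 49 chromatin genes longer than 5399 bases, 22 were lower and 0 higher in NBH Control, with a median log2 fold change of -0.44; of the 49 shorter ones 4 were lower and 3 higher, with a median of -0.04. Across the 98 genes log2 fold change and length had a Spearman correlation of -0.56, and across all 23292 tested genes -0.37. The share of lower calls was set beside that of all genes of like length: among transcripts of 4000 to 8000 bases 13 of 41 chromatin genes (31.7%) were lower, against 24.3% of all genes, and over 8000 bases 12 of 23 (52.2%), against 23.7%. Among shorter transcripts the order was the other way, with 1 of 24 chromatin genes (4.17%) lower against 8.78% of all genes at 2000 to 4000 bases, and 0 of 9 against 3.63% at 1000 to 2000 bases. These shares describe genes measured in the same libraries and were not tested against each other.

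The same correlation differed between the comparisons in size and sign. Across the 98 genes it was 0.40 for NBH PCB400 against NBH Control, 0.06 for NBH PCB40 against NBH Control, -0.40 for SCO PCB40 against SCO Control and -0.26 for SCO Hg Fed against SCO Control. With the trend of all genes removed these became -0.02, 0.04, -0.12 and -0.09, and for the controls -0.19.

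arid2 also had the smallest p in NBH Control against SCO Control. This comparison shares the SCO Control embryos with SCO PCB40 against SCO Control. The results of arid2, and of kdm3b and chd9, in these comparisons are therefore not independent. arid2 measured 12.6, 13.8 and 15.4 CPM (lowest, median, highest) in NBH Control against 20.8, 28.9 and 34.7 CPM in SCO Control, without overlap. The log2 fold change was -1.02 (SE 0.14, adjusted p = 1.62e-04), or 0.493 times, and -0.66 (adjusted p = 2.18e-04) with the length trend removed. It was the 1 chromatin gene still called with each library's length slope as a covariate in the model (2.32% of all genes), and it was called under every alternative tried.

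Over all 6 groups arid2 lay at 2 levels. Mean CPM was 13.7 ± 0.977 in NBH Control, 13.6 ± 3.25 in NBH PCB40 and 15.0 ± 2.13 in NBH PCB400. It was 15.3 ± 3.94 in SCO PCB40, 26.0 ± 1.72 in SCO Hg Fed and 27.8 ± 5.03 in SCO Control (SD, n = 6 each). Neighbours in this order differed by less than the larger of their SDs, except SCO PCB40 and SCO Hg Fed, whose values did not overlap. NBH PCB40 replicate 1, at 20.1 CPM, and SCO PCB40 replicate 2, at 22.2 CPM, were the high embryos of the lower level, and both had positive length slopes (0.184 and 0.243). Per length arid2 averaged 2.11 to 2.69 TPM in the 3 NBH groups and SCO PCB40, 4.46 TPM in SCO Hg Fed and 4.84 TPM in SCO Control.

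The DNA methylation enzymes were the role with the largest share of calls between controls, 5 of 6 lower in NBH Control. Of all tested genes 17.4% were called and 10% were lower, and of all genes over 8000 bases 23.7% were lower. With the length trend removed 3 of 6 were called, against 11.1% of all tested genes. tet3 measured 35.7, 49.2 and 60.4 CPM (lowest, median, highest) in NBH Control against 70.3, 85.8 and 102 CPM in SCO Control, with no overlap (log2 fold change -0.81, SE 0.19, adjusted p = 0.00607). tet2 ran from 8.80 to 14.2 CPM in NBH Control against 16.9 to 24.6 CPM in SCO Control, also without overlap (-0.82, SE 0.20, adjusted p = 0.007). tet1 ran from 2.56 to 4.55 CPM in NBH Control and from 4.06 to 12.9 CPM in SCO Control, with 5 of 6 below every SCO Control embryo (-1.51, SE 0.41, adjusted p = 0.0137).

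All 3 TET genes were still called with the length trend removed, at log2 fold changes of -0.48 for tet3, -0.47 for tet2 and -1.13 for tet1. The de novo methyltransferases dnmt3ab (-0.58, SE 0.18, adjusted p = 0.0265) and dnmt3ba (-0.73, SE 0.25, adjusted p = 0.0441) were not, at adjusted p of 0.334 and 0.317. dnmt1, which copies methylation after replication, averaged 40.5 ± 1.57 CPM in NBH Control and 39.9 ± 5.08 CPM in SCO Control (0.02, SE 0.13, adjusted p = 0.919). tet1, dnmt3ab and dnmt3ba were named after their values were seen.

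Among histone methyltransferases 1 was higher and 5 lower of 21 (28.6% called), where 17.4% of all tested genes were called. Among demethylases 0 were higher and 4 lower of 16 (25%). Their median lengths were 4547 and 5539 bases, and of all genes of 4000 to 8000 bases 24.3% were lower. With the length trend removed 2 methyltransferases were higher and 1 lower. Of the demethylases 0 were then higher and 1 lower, with 11.1% of all tested genes called. kmt2d, an H3K4 methyltransferase of enhancers, measured 2.37, 4.03 and 4.98 CPM in NBH Control against 5.55, 9.41 and 11.6 CPM in SCO Control, without overlap (log2 fold change -1.23, SE 0.30, adjusted p = 0.00808). setd1a, an H3K4 methyltransferase of promoters, averaged 4.15 ± 1.07 CPM in NBH Control and 6.82 ± 0.855 CPM in SCO Control (-0.72, SE 0.18, adjusted p = 0.00808). kdm3b ran from 10.4 to 12.5 CPM in NBH Control against 18.4 to 24.6 CPM in SCO Control (-0.94, SE 0.20, adjusted p = 0.00278). kmt2d and kdm3b were still called with the length trend removed, and setd1a was not (adjusted p = 0.0924).

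In the SWI/SNF and ARID genes 4 of 20 were lower and 0 higher (20%, near the 17.4% of all tested genes called, with 10% of all tested genes lower). Beside arid2 these included smarcc2, a core SWI/SNF subunit, at 118 ± 7.46 CPM in NBH Control and 167 ± 9.64 CPM in SCO Control (-0.49, SE 0.13, adjusted p = 0.00975; 0.0954 with the length trend removed). arid1ab, a subunit of the canonical BAF complex, ran from 7.30 to 10.4 CPM in NBH Control against 14.9 to 23.8 CPM in SCO Control (-1.25, SE 0.34, adjusted p = 0.0129). Among CHD remodellers 2 of 11 were lower (18.2%, also near that share), chd9 at 34.9 ± 2.90 CPM in NBH Control and 48.6 ± 7.71 CPM in SCO Control (-0.48, SE 0.11, adjusted p = 0.00557) and chd8. Neither was called with the length trend removed. Then chd2, chd3, chd4b and chd5 were called higher, at log2 fold changes of 0.63, 0.40, 0.61 and 0.38. Of all tested genes 4.88% were called higher in that fit. As measured 0 of the 11 were called higher, and their highest log2 fold change was 0.29. chd3 as measured ran from 62.0 to 82.7 CPM in NBH Control and from 55.7 to 81.0 CPM in SCO Control. chd5 ran from 58.5 to 80.6 CPM in NBH Control and from 59.9 to 78.8 CPM in SCO Control. chd8, chd3, chd4b and chd5 were named after their values were seen.

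The 3 genes that were higher in NBH Control all have short transcripts. hdac1 measured 178, 199 and 224 CPM (lowest, median, highest) in NBH Control against 95.9, 117 and 148 CPM in SCO Control, without overlap (log2 fold change 0.73, SE 0.20, adjusted p = 0.0143). setd7, at 47.5 ± 10.2 CPM in NBH Control and 31.7 ± 3.94 CPM in SCO Control, did not overlap either (0.58, SE 0.18, adjusted p = 0.0227). hdac11 ran from 30.0 to 57.1 CPM in NBH Control and from 16.3 to 42.7 CPM in SCO Control (0.80, SE 0.25, adjusted p = 0.0255). hdac1 was still called with the length trend removed (0.63, adjusted p = 0.0299), and setd7 and hdac11 were not (adjusted p = 0.0859 and 0.0735). NBH PCB400 was compared with the same NBH Control embryos, so the hdac1 results of these comparisons are not independent.

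Of the 209 other chromatin genes 8 were higher and 35 lower in NBH Control against SCO Control (20.6%, near the 17.4% of all tested genes). By direction, 7.33% of all tested genes were higher and 10% lower. With the length trend removed 5 of the 209 were higher and 22 lower. Of all tested genes 11.1% were then called, 4.88% higher and 6.25% lower. Lower genes included the cohesin release factor wapla (-0.80, SE 0.16, adjusted p = 0.00193), the SIN3 corepressor scaffold sin3aa (-0.82, SE 0.20, adjusted p = 0.00762) and the remodelling ATPase srcap (-1.35, SE 0.35, adjusted p = 0.0107). The Polycomb subunit eed was higher, at 146 ± 10.7 CPM in NBH Control and 103 ± 10.3 CPM in SCO Control (0.51, SE 0.15, adjusted p = 0.0233). With the length trend removed eed was not called (0.32, adjusted p = 0.0527), and wapla, sin3aa and srcap were. Also lower as measured were baz2ba (-0.55, SE 0.11, adjusted p = 0.00193) and bcl11ba (-0.57, SE 0.12, adjusted p = 0.0032). So was stag2b (-0.41, SE 0.09, adjusted p = 0.00426). With the length trend removed baz2ba, bcl11ba and stag2b were not called, at adjusted p of 0.253, 0.102 and 0.808.

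Within each PCB126 group some long chromatin genes stood high in 1 or 2 embryos. arid1ab measured 22.3 and 24.1 CPM in NBH PCB400 replicates 2 and 6 and between 7.71 and 10.2 CPM in the other 4 embryos of that group. In NBH PCB40 replicate 1 it was 31.0 CPM, against 6.54 to 11.2 CPM in the other 5, and in SCO PCB40 replicates 1 and 2 it was 22.1 and 26.2 CPM, against 7.98 to 9.32 CPM in the other 4. These 5 embryos had the highest length slopes of their groups, 0.186 and 0.20, 0.184, and 0.116 and 0.243.

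kdm5c, an H3K4 demethylase, had its highest values in the same embryos. It measured 24.5 and 17.6 CPM in NBH PCB400 replicates 2 and 6, 29.9 CPM in NBH PCB40 replicate 1, and 24.5 and 33.1 CPM in SCO PCB40 replicates 1 and 2. The other embryos of those groups lay between 6.10 and 14.9 CPM. In the controls kdm5c ran from 9.04 to 13.6 CPM in NBH Control and from 20.5 to 27.5 CPM in SCO Control (log2 fold change -1.04, SE 0.31, adjusted p = 0.023; 0.0551 with the length trend removed). arid1ab and kdm5c were chosen after their values were seen.

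The longer chromatin genes as a set varied in the same way. For each embryo the median deviation of the 49 longer genes from the mean of all embryos (log2 scale) was -0.40 to -0.08 in NBH Control and -0.05 to 0.32 in SCO Control, without overlap, while that of the 49 shorter genes was -0.04 to 0.12 in both. In NBH PCB40 the longer genes ran from -0.33 to 0.31, in NBH PCB400 from -0.30 to 0.32 and in SCO PCB40 from -0.28 to 0.51, and in SCO Hg Fed from 0.02 to 0.16. The length slope was computed over all genes and is not independent of these values, and its part in them was not tested.

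**Figure D4:**
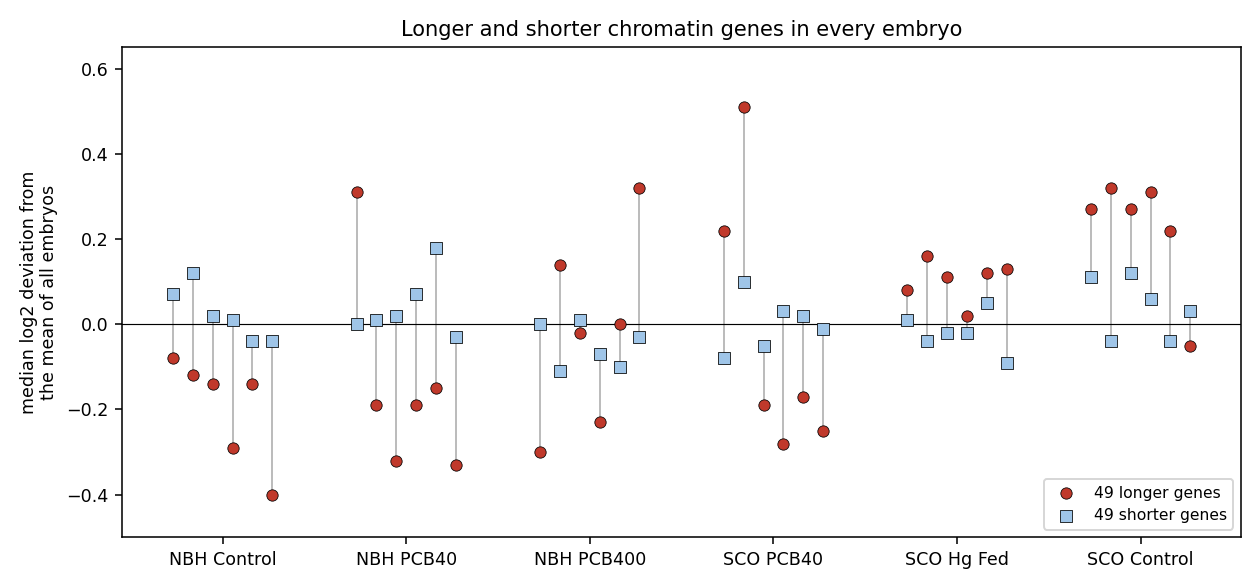
Median log2 deviation from the mean of all embryos of the 49 longer (circles) and 49 shorter (squares) chromatin genes, joined by a line for each embryo, in the 6 groups. Longer genes lie below shorter ones in all 6 NBH Control embryos and above them in 5 of 6 SCO Control embryos, and both orders occur in each PCB126 group.

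The populations were also compared at 40 ng/L, a comparison added after the values were seen, since it shares no embryo with that of the controls. In NBH PCB40 against SCO PCB40 0 of 98 chromatin genes were called, with 0.726% of all tested genes called; 14 had an unadjusted p under 0.05 (15.4% of all genes) and DESeq2 called 2 (2.67% of all genes). Of the 29 genes called between controls, 27 (93.1%) had the same sign at 40 ng/L and 6 of those (20.7% of the 29) an unadjusted p under 0.05. Of all 4048 genes called between controls 88.6% had the same sign and 26.9% also an unadjusted p under 0.05. For the chromatin genes the median log2 fold change of all 29 was -0.17 at 40 ng/L, against -0.65 between controls. For all 4048 genes it was -0.04 at 40 ng/L, against -0.46 between controls. Both sets were picked by their values between controls. arid2 differed by less than its SD at 40 ng/L, at 13.6 ± 3.25 CPM in NBH PCB40 and 15.3 ± 3.94 CPM in SCO PCB40 (log2 fold change -0.17, SE 0.14, adjusted p = 0.579).

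brd1a, a scaffold of histone acetyltransferase complexes, had the smallest p of the chromatin genes at 40 ng/L. It measured 0.894, 1.53 and 5.63 CPM (lowest, median, highest) in NBH PCB40 against 2.98, 6.03 and 13.4 CPM in SCO PCB40, with 5 of 6 NBH embryos below every SCO embryo (log2 fold change -1.76, SE 0.48, adjusted p = 0.067). The high NBH embryo was replicate 1, without which brd1a was called (adjusted p = 0.0179). Between controls brd1a had the same sign, at -1.35 (adjusted p = 0.0464). arid4a (-0.45, SE 0.13, adjusted p = 0.0902) and hdac1 (0.61, SE 0.20, adjusted p = 0.137) followed, both with the sign they had between controls. The number called was 9, with 4 higher and 5 lower, when the 3 SCO PCB40 embryos with negative length slopes were left out (8.85% of all genes). It was 4 without NBH PCB40 replicate 1 and 1 without SCO PCB40 replicate 6, fits whose calls over all genes are not given.

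**Figure D5:**
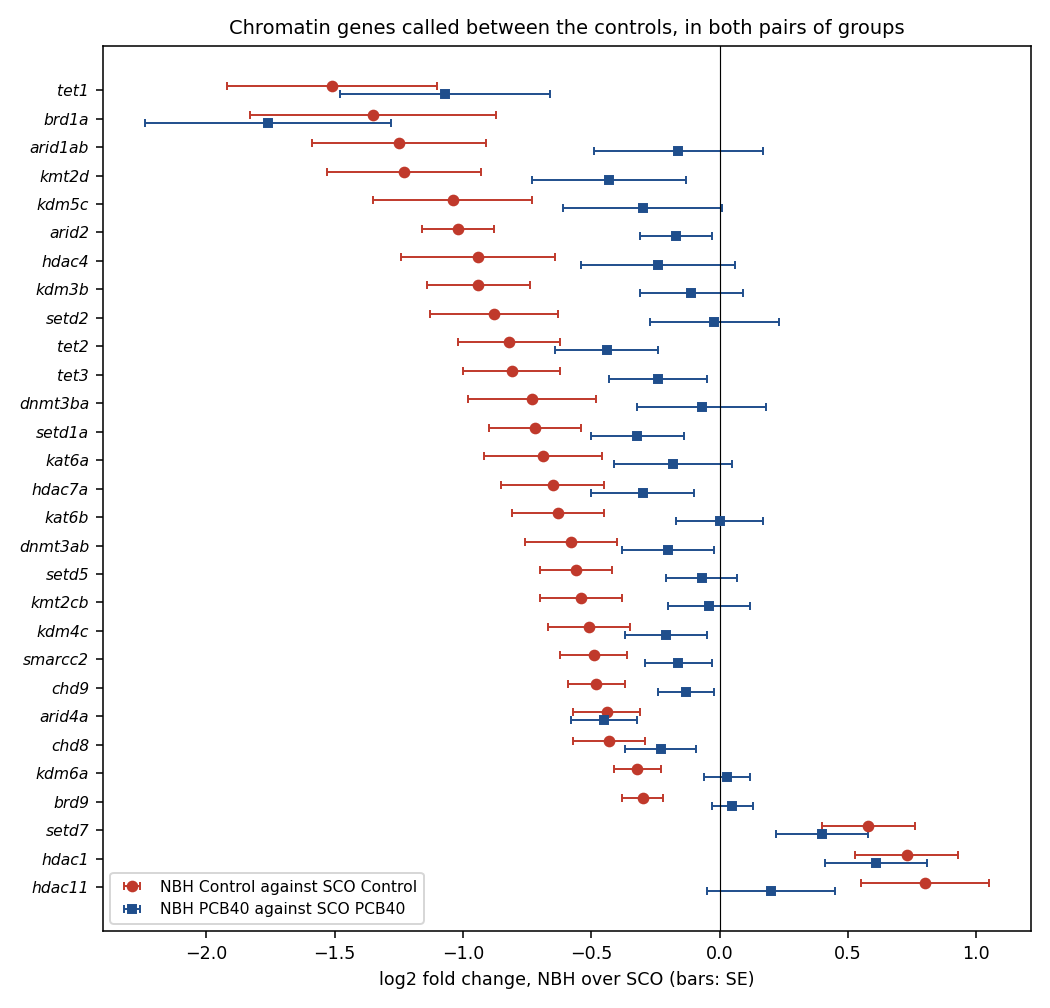
Log2 fold change (NBH over SCO, bars SE) of the 29 chromatin genes called between controls, in NBH Control against SCO Control (circles) and in NBH PCB40 against SCO PCB40 (squares). The median is -0.65 for the circles and -0.17 for the squares. Over all 4048 genes called between controls it is -0.46 and -0.04. hdac1 lies at 0.73 and 0.61, tet1 at -1.51 and -1.07 and arid2 at -1.02 and -0.17.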

How the data were processed

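Per the submitters' processing notes Salmon 1.3.0 and edgeR 3.30.3 were used, with no role stated; the genome build and annotation release are not given in the sources used here. The authors deposited, for each of 36 libraries, expected counts (estimated reads), TPM and length for 56244 transcripts. All 56244 matched a gene of the RefSeq killifish table (assembly MU-UCD_Fhet_4.1, used for names only). Both were summed over the transcripts of a gene, the expected counts then being rounded; gene length is the TPM-weighted mean transcript length. How reads were divided between paralogs cannot be checked from these values.

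Genes were filtered with filterByExpr by group, scaled by TMM, and fitted in edgeR 4.0.16 (quasi-likelihood as in edgeR 3, R 4.3.3) with 1 mean per group over all 36 libraries. Calls are Benjamini-Hochberg adjusted p under 0.05, two-sided, over 23292 genes. CPM use TMM-scaled library sizes. The length trend was removed with a lowess curve (span 0.3) of each library's log2 deviation on log2 length, over genes above 2 log2 CPM for the slope. The main edgeR fit was tested on counts simulated without a length trend, and the length corrections and DESeq2 were not. Alternatives were DESeq2 1.42.0, other scaling and filters, length corrections, a replicate block, single comparisons and leaving out each embryo. Libraries of 1 group (90 pairs) had correlations of 0.927 to 0.971 over genes, and 0 pairs were identical. The CPM that corresponds to 3 reads reflects counting depth only and is not an interval.

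Members, gene lists and roles were chosen with earlier results of these data known. A gene that the symbols also match was left out and is not reported here. In each comparison the text names the called genes (8 higher and 8 lower by p where over 16 were called, the 3 with the smallest p where under 3 were), always arid2, and the 2 genes with the highest TPM in each role; other names with values are marked in the text as later choices, except the untested arid6. Of the other lists at most 2 called genes each were named. No sequences were used.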

Additional observations from a re-analysis of the deposited data

Results flagged for a closer look

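Among the 6 embryos of a group, single values that stood far from the other 5 were looked for in 39 named chromatin genes and in their summed share of reads (240 groups of values, Dixon's test at the 95% level, which chance passes in about 1 of 20). It marked 20 values. Of these, 7 came from NBH PCB40 replicate 1, the embryo of that group with a positive length slope: arid1ab at 31.0 CPM (others 6.54 to 11.2), arid2 at 20.1 (11.6 to 12.9), brd1a at 5.63 (0.894 to 1.82), chd4a at 118 (60.6 to 78.4), kdm5c at 29.9 (7.73 to 14.6), smarcc2 at 167 (104 to 124) and tet3 at 90.9 CPM (43.3 to 58.2). arid1ab and kdm5c had been chosen after their values were seen, so their marks are not independent of that choice.

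The remaining values were spread over 10 embryos. In NBH PCB400 kdm2ab was 37.3 CPM in replicate 2 (others 20.6 to 26.3). In NBH PCB40 smarcb1a was 2.36 CPM in replicate 3 (0.247 to 0.769) and smarcd1 was 119 CPM in replicate 6 (171 to 187). In SCO PCB40 ezh1 was 150.0 CPM in replicate 3 (66.7 to 94.4) and setd3 was 26.1 CPM in replicate 6 (18.0 to 20.6). In SCO Hg Fed replicate 1 chd7 was 56.6 CPM (38.5 to 45.0) and smarcc2 was 121 CPM (147 to 160.0). In SCO Control replicate 3 kdm2ab was 108 CPM (16.4 to 39.2). In NBH Control brd9 was 17.0 CPM in replicate 6 (20.4 to 22.0), chd2 was 245 and dnmt1 37.5 CPM in replicate 3 (263 to 271 and 40.3 to 41.8), and smarca5 was 130.0 and smarcb1a 0.979 CPM in replicate 2 (113 to 119 and 0.223 to 0.50).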

How the results depend on the processing

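Of 26 named results that passed the threshold, 3 did so under every alternative run (smarca5 and hdac1 in NBH PCB400 against NBH Control, arid2 in NBH Control against SCO Control) and 0 changed sign. In NBH Control against SCO Control 29 chromatin genes became 16 with the length trend removed and 1 with the length slope as a covariate, their median log2 fold change -0.03 and -0.07. The slopes of those 2 groups do not overlap, so the covariate and population cannot be told apart there. In SCO PCB40 against SCO Control 5 lower genes became 1 with the trend removed (median 0.03). With the slope covariate 3 were called, 1 higher and 2 lower (757 of all 23292 genes, 248 higher and 509 lower). The number was 1 without the negative-slope embryos and 0 in a fit of these groups alone. In NBH PCB400 against NBH Control the median was -0.01 with the trend removed and -0.05 with the slope covariate, and arid2 turned from 0.12 to -0.07 and -0.10. DESeq2 called 8 there, 1 higher and 7 lower, with 1565 of all 23292 genes. DESeq2 called 1 for SCO Hg Fed, 1 for the difference of the PCB40 responses (median -0.01 with the trend removed) and 2 for NBH PCB40 against SCO PCB40. In that last comparison edgeR 4 dispersions, chosen after seeing the data, the slope covariate and the trend removed gave 1 each. Over all 23292 genes they gave 426, 244 and 228 calls. Without the negative-slope embryos 9 chromatin genes were called. Leaving out single embryos gave 2 to 7 calls in NBH PCB400 against NBH Control, 1 to 10 in SCO PCB40 against SCO Control (median -0.19 to -0.09), 20 to 29 between controls, 0 to 4 in NBH PCB40 against SCO PCB40 and 0 to 1 for the difference of responses (median -0.20 to -0.08). It moved dnmt1 between controls from -0.01 to 0.09 and arid2 in NBH PCB40 against NBH Control from -0.16 to 0.02. Calls over all genes in the fits without single embryos are not given in this report. The causes were not tested. Replicate numbers do not pair embryos (same-number correlations from -0.249 to 0.332). A fit with the replicate number as a block called 31 chromatin genes between controls (3 higher, 28 lower). It called 6 in NBH PCB400 (1 higher, 5 lower) and 7 in SCO PCB40 (0 higher), with 0 in the others. Over all 23292 genes it called 4147, 1039 and 644, in the same order. Scaling, filter and effective length changed no count by over 1.5 times.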
